A study of Homo sapiens with 12 samples.

Results

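The regions described here are the peaks of trimethylated lysine 9 on histone H3 (H3K9me3) that lie far inside long protein-coding genes, in 293T cells. A peak was taken when the authors' annotation placed it in the body of a protein-coding gene on chromosomes 1 to 22, with its midpoint 200000 bp or more from the start of the assigned transcript. The genes PCDH9, GPC5, CNTNAP2, DSCAM, GPHN and NCAM2 were left out by the rule. This gave 1341 peaks covering 890 kb in the wild-type list and 1870 peaks covering 1432 kb in the knockout list, 3211 of the 112068 peaks in both lists. The choice used annotation and position only, and no measured value. They are called far peaks below, and the other gene body peaks of protein-coding genes near peaks.

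The study set wild-type (WT) 293T cells, a human embryonic kidney line that carries the SV40 large T antigen, against cells of that line in which SMARCA3, now called HLTF, was knocked out (KO); SMARCA3 encodes a DNA translocase with a ubiquitin ligase domain. Chromatin immunoprecipitation with an H3K9me3 antibody gave 3 libraries per genotype, each beside an input library, 12 in all. The labels call them biological triplicates and do not say whether the knockout is 1 clone or a pool. The analysed files are 2 peak lists, 1 per genotype, with a fold enrichment and a q-value per peak that are the authors' own values. No value per library was at hand, so read depth and replicate spread are unknown, no test between genotypes was possible, and a 95% interval below covers the counting of peaks only.

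H3K9me3 is the mark of constitutive heterochromatin. Methyltransferases such as SETDB1 and the SUV39H enzymes deposit it, and HP1 proteins bind it; in gene-rich chromatin it is found mainly over transposable elements and KRAB zinc-finger genes. Very long human genes consist almost wholly of introns rich in repeats, many of them act in neurons, and several span common fragile sites. A far peak is therefore a site of the mark deep in the gene, usually in intronic sequence, at a long way from the promoter that starts the transcript.

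The rule left out peaks that the authors placed in a promoter class, among them 131 WT and 174 KO peaks beyond 200 kb in long RefSeq genes, so few starts could be met by a far peak. The reference table holds 33725 RefSeq promoter windows on chromosomes 1 to 22, each 300 bases long. Of those searched, 3 were met by a far peak, and all belong to noncoding genes nested in a long host gene. The windows left out of the search are named with the processing of the data. The 3 are printed because they are the only annotated starts found to be met by these peaks. The sequences come from RefSeq (GRCh38.p14) and run 5′ to 3′ on the strand of the nested gene, with the bases inside the KO peak in capitals.
GNA14-AS1, chr9:77447399-77447698, plus strand: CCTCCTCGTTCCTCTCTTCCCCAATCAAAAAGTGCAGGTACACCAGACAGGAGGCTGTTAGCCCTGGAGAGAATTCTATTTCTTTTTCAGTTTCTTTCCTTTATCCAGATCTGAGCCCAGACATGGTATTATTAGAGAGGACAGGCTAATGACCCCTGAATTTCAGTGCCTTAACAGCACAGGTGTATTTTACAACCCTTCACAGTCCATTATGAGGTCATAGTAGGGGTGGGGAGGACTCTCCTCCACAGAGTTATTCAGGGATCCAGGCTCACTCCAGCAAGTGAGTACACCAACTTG
GPC6-AS2, chr13:93858424-93858723, minus strand: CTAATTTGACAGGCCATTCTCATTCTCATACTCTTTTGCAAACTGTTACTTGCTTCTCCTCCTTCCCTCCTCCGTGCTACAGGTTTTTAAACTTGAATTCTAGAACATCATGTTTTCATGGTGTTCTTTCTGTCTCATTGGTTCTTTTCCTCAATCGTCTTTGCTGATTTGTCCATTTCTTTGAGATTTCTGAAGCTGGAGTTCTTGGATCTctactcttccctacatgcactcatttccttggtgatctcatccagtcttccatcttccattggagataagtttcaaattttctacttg
LOC124904868, chr20:8594622-8594921, minus strand: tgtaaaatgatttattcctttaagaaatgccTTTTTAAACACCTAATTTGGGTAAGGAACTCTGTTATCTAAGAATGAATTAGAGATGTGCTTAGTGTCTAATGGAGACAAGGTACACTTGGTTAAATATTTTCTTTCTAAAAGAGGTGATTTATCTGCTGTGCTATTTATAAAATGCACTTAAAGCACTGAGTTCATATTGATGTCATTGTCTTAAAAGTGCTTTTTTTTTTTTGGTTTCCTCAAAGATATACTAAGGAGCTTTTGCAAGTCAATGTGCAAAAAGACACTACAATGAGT
The GNA14-AS1 window lay wholly within a KO peak of 652 bp and fold 3.17, while the nearest WT peak was 25948 bp away. The GPC6-AS2 window had 212 bases in a KO peak of fold 3.36, with the nearest WT peak at 4287 bp. LOC124904868, inside PLCB1, was met in both lists, by a WT peak of 442 bp and fold 4.16 and a KO peak of 1042 bp and fold 5.496. These windows held 1, 2 and 0 CpG dinucleotides, against a median of 14 over all windows, and 47.0%, 39.3% and 31.0% G and C against a median of 58.7%.

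No far peak met any of the 1461 miRNA hairpins in the reference table. The transcripts to which the authors assigned peaks can reach beyond the RefSeq gene. Of the 3159 far peaks whose gene matched RefSeq by symbol, 2955 (93.5%) had their midpoint inside the RefSeq gene, and 33 genes had one outside it. All 24 of TBC1D5, all 16 of RBMS3 and 12 of LSAMP lay outside.

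Far peaks were more numerous in the KO list, by about the same factor as peaks in general. They made up 9.50% (9.03 to 10.0) of the 14114 WT and 10.2% (9.81 to 10.7) of the 18260 KO gene body peaks of protein-coding genes. The KO list held 1.39 times as many far peaks as the WT list (1.30 to 1.496) and 1.61 times the bases. Over all peaks of chromosomes 1 to 22 the ratios were 1.44 (1.42 to 1.46) and 1.65, and for near peaks 1.28 (1.25 to 1.31) and 1.48. The interval of the far peaks includes the ratio of all peaks. Its lower end, 1.30, lies just above the near-peak ratio of 1.28, and the intervals of far and near peaks overlap. The KO list is longer than the WT list as a whole, and when both lists were brought to the same length by keeping the KO peaks of highest fold, the far-peak ratio was 1.05 (0.975 to 1.13) in number and 1.30 in bases. With only the peaks at or below the pooled median q-value it was 2.12 (1.91 to 2.36) in number and 2.16 in bases, so its size depended on which peaks were kept.

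Most far peaks were small and of moderate fold. The median width was 461 bp in WT and 526.5 bp in KO, and 16.7% and 22.8% exceeded 1 kb. The median fold was 3.77 in WT and 3.66 in KO, with maxima of 9.60 and 10.46. Near peaks in WT exceeded 1 kb more often, in 19.9%, a difference of -3.21 percentage points for far peaks (-5.24 to -1.01). In KO the same difference was -1.94 points, with an interval that includes 0 (-3.90 to 0.127). By depth into the gene, WT far peaks at 200 to 300 kb had a median fold of 3.77, and those at 600 to 1000 kb had the same median.

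A peak was called shared when it overlapped a peak of the other list by 1 bp or more. In WT 1087 far peaks were shared, 81.1% (78.9 to 83.1), and in KO 974, 52.1% (49.8 to 54.3). The 254 WT far peaks without a KO partner are 18.9%, near the 18.4% of all WT peaks. The 896 KO far peaks without a WT partner are 47.9%, near the 50.3% of all KO peaks. Against near peaks, far KO peaks were shared less often by 4.24 points (difference -4.24, -6.63 to -1.86), and against intergenic peaks more often by 4.39 points (2.05 to 6.71). Unshared far peaks were the smaller and weaker ones. KO far peaks without a partner had a median width of 393 bp and a median fold of 3.43, and those with a partner 811.5 bp and 3.90. Of the 468 KO far peaks of highest fold 389 were shared (83.1%), and of the 498 of lowest fold 183 (36.7%). The same splits by width and fold were not made for near peaks or for all peaks. They therefore cannot show a trait particular to far peaks.

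At the strong end the lists differed more. A fold of 6 or more was reached by 20 WT far peaks in 14 genes and 54 KO far peaks in 38 genes, a ratio of 2.70 (1.63 to 4.49). All 20 and all 54 overlapped a peak of the other list, but the same share over all peaks of that fold was not computed. Among near peaks 329 WT and 501 KO peaks passed the same limit, a KO to WT ratio of 1.52 (1.33 to 1.75). The KO list thus supplied 73.0% of strong far peaks and 60.4% of strong near peaks, a difference of 12.6 points (1.07 to 22.03). Over all peaks of chromosomes 1 to 22 it supplied 61.6%, a difference of 11.4 points (0.174 to 20.4). These intervals treat peaks as independent, although strong peaks of 1 gene and of both lists share sites. GPC6 alone held 6 of the WT and 7 of the KO strong far peaks, and without it the counts were 14 and 47. At a fold of 5 or more the far-peak ratio was 1.56 (1.23 to 1.99), against 1.21 (1.12 to 1.30) for near peaks, and at 4 or more it was 1.10 (0.977 to 1.24). The fold scale of each list is set by its own libraries, so these counts compare the lists and not the level of the mark.

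The strongest far peaks lay in GPC6, which encodes a glypican, a cell-surface proteoglycan with heparan sulphate chains. The strongest of the WT list, chr13:94075723-94079000 (hg38), had fold 9.60 and met a KO peak of fold 7.53. The strongest of the KO list, chr13:94245295-94247773, had fold 10.46 and met a WT peak of fold 9.29 that is 2586 bp wide. RYR2, the ryanodine receptor of heart muscle, held the next WT peak by gene, 3005 bp wide with fold 6.91. NKAIN3 in WT, with fold 6.72, completed the WT leaders. In KO the peaks after GPC6 were in NKAIN2, a partner of the sodium pump, with fold 8.45 against 5.43 at the WT peak it met, and in EPM2A, the gene of the glycogen phosphatase laforin, with fold 8.19 against 5.88 for the WT peak given beside it. The widest KO far peak spanned 7299 bp of DNAH14, an axonemal dynein heavy chain, and met 3 WT peaks. Among the next widest, a peak of SLC44A5, a choline transporter-like gene, spanned 4194 bp in WT and 4336 bp in KO.

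Far peaks were spread over many genes and were dense in few. In all 395 genes had one, 320 in WT and 376 in KO, of which 301 appeared in each of the lists, 75 only in KO and 19 only in WT. In WT 95 genes and in KO 117 had a single far peak, while 32 and 48 genes had 10 or more. The 10 genes with most far peaks held 238 WT and 332 KO peaks, 17.7% and 17.8% of each list. Of the genes in KO alone 48 had 1 peak, and those with most after CHODL included OPCML with 6 and LRRC4C and TNR with 4 each. Of the genes in WT alone 15 had 1 peak, and the one with most was RSRC1 with 3.

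Ranked by number, GPC6 came first. Its transcript (ENSG00000183098, chr13:93226842-94407401, plus strand) held 43 WT and 61 KO far peaks with 42317 and 55547 bases. The peaks ran from 201 to 1056 kb after the start, and 26 of the 104 lay within 100 kb, at 201 to 272 kb. DAB1 (ENSG00000173406, chr1:56997899-58546734, minus strand), the adaptor of reelin signalling, had 36 WT and 39 KO far peaks with 25637 and 35231 bases. FHIT (ENSG00000189283, chr3:59749310-61251413, minus strand), a dinucleotide hydrolase that spans a fragile site, had 27 and 42 with 15014 and 33882 bases. DOCK3 (ENSG00000088538, chr3:50675241-51384198, plus strand), an exchange factor for the GTPase Rac, had 26 and 37 with 17481 and 31140 bases. In each of these genes the KO list held more peaks and more bases, and GPC6 and DAB1 stayed under 1.5 times the WT bases.

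The other leaders by number were of mixed function. NKAIN2 had 25 WT and 24 KO far peaks, yet 15902 and 28403 bases, so its KO peaks were fewer and wider. PTPRN2, a phosphatase-like protein of secretory granules, had 18 and 29. ADAMTSL1, a secreted protein of the ADAMTS-like group, had 19 and 22, and the ephrin receptor EPHA6 had 16 and 23. The Slit receptor ROBO2 had 14 and 25, and CACNA2D3, an auxiliary subunit of calcium channels, 13 and 25. SDK1, an immunoglobulin-type adhesion protein, had 21 WT and 18 KO far peaks, with 14214 and 15947 bases. SDK1 and NKAIN2 were the 2 of these 12 genes with fewer KO peaks. More KO bases were found in all 12 genes, but with lists of equal length EPHA6 and PTPRN2 had fewer, and with the stricter fold or q-value limits EPHA6 did. EYS tied with CACNA2D3 at 38 peaks of both lists, 18 in WT and 20 in KO. Of the 12 genes 5 lie on chromosome 3.

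**Figure D1:**
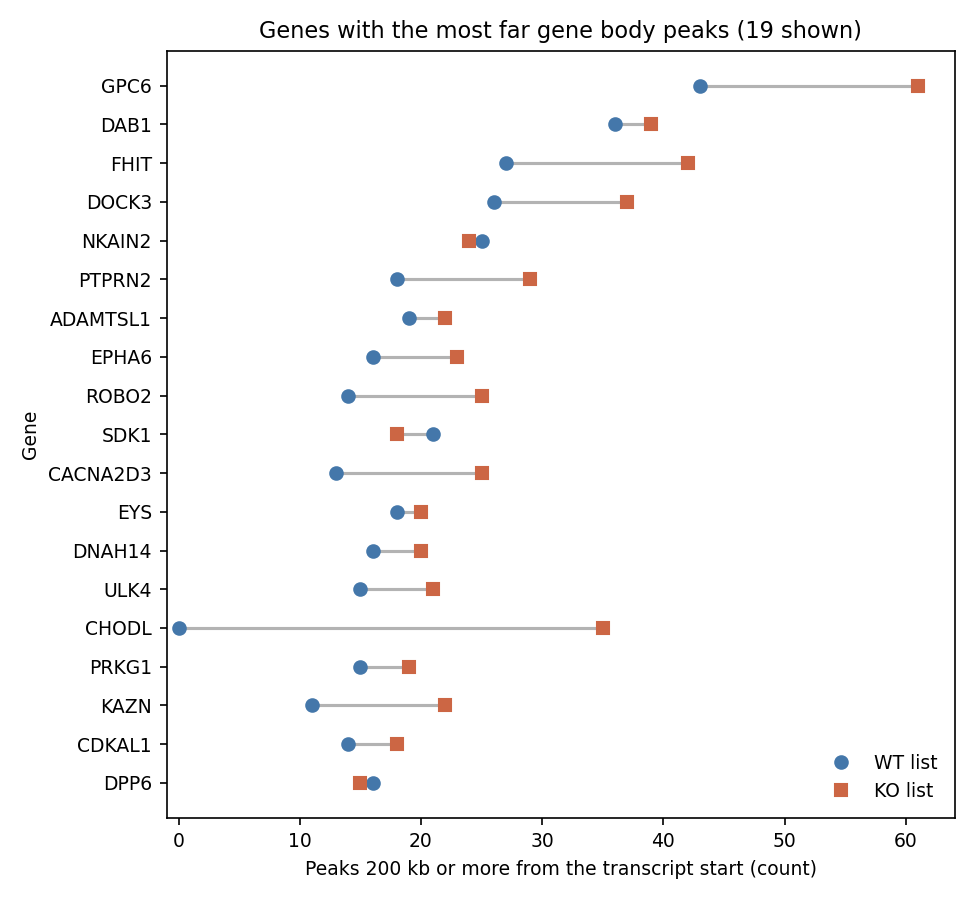
Number of far gene body peaks (horizontal axis, count) in 19 of the 20 genes with the most of them (vertical axis), with WT as circles, KO as squares and a grey line joining the lists. GPC6 leads with 43 and 61, CHODL has 0 and 35, and NKAIN2, SDK1 and DPP6 have fewer in KO.

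Ranking by bases per length changed the order. Length here is the longest transcript of the gene to which a far peak was assigned, and genes needed 5 or more far peaks. DNAH14 led, with 52.5 far-peak bases per kb as the mean of both lists, in a transcript of 447 kb. GPC6 followed with 41.4, DOCK3 with 34.3, KCNH5, a voltage-gated potassium channel, with 28.4, NKAIN2 with 25.9 and ADAMTSL1 with 25.9. The RefSeq gene is longer in NKAIN2, at 1021.8 kb against 854.8 kb for the transcript, and in ADAMTSL1, at 1004.3 against 626.7 kb. Over the RefSeq length the values of NKAIN2 and ADAMTSL1 are therefore lower. Some NKAIN2 far peaks also lay beyond the end of its longest transcript. DAB1 was at place 14 with 19.6, FHIT at 24 with 16.3 and ROBO2 at 93 with 6.24. Only 9 genes were among the first 20 by both rankings. With RefSeq gene lengths in place of the transcript, GNGT1 came first, at 269 bases per kb, because its RefSeq gene is 4.70 kb and the authors' transcript 319.5 kb.

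In some genes the far peaks took up a small part of the stretch open to them. All 36 far peaks of DNAH14 lay between 210 and 285 kb after the start, in chr1:225162254-225237667, of a transcript of 447 kb, with 16 in WT and 20 in KO. The 16 of EPM2A lay between 248 and 294 kb of a transcript of 353 kb. In ROBO2, with a transcript of 1701 kb, the densest 100 kb held 15 of the 39 far peaks. Neighbouring far peaks of a list in the same gene were 10 kb or less apart in 52.4% (49.3 to 55.4) of WT and 52.1% (49.5 to 54.6) of KO gaps. Among near peaks 67.5% and 68.4% of gaps were that short. Near peaks lie by definition below the distance limit, in genes of any length, which bounds their gaps. These shares therefore cannot show whether near peaks are more closely spaced.

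**Figure D2:**
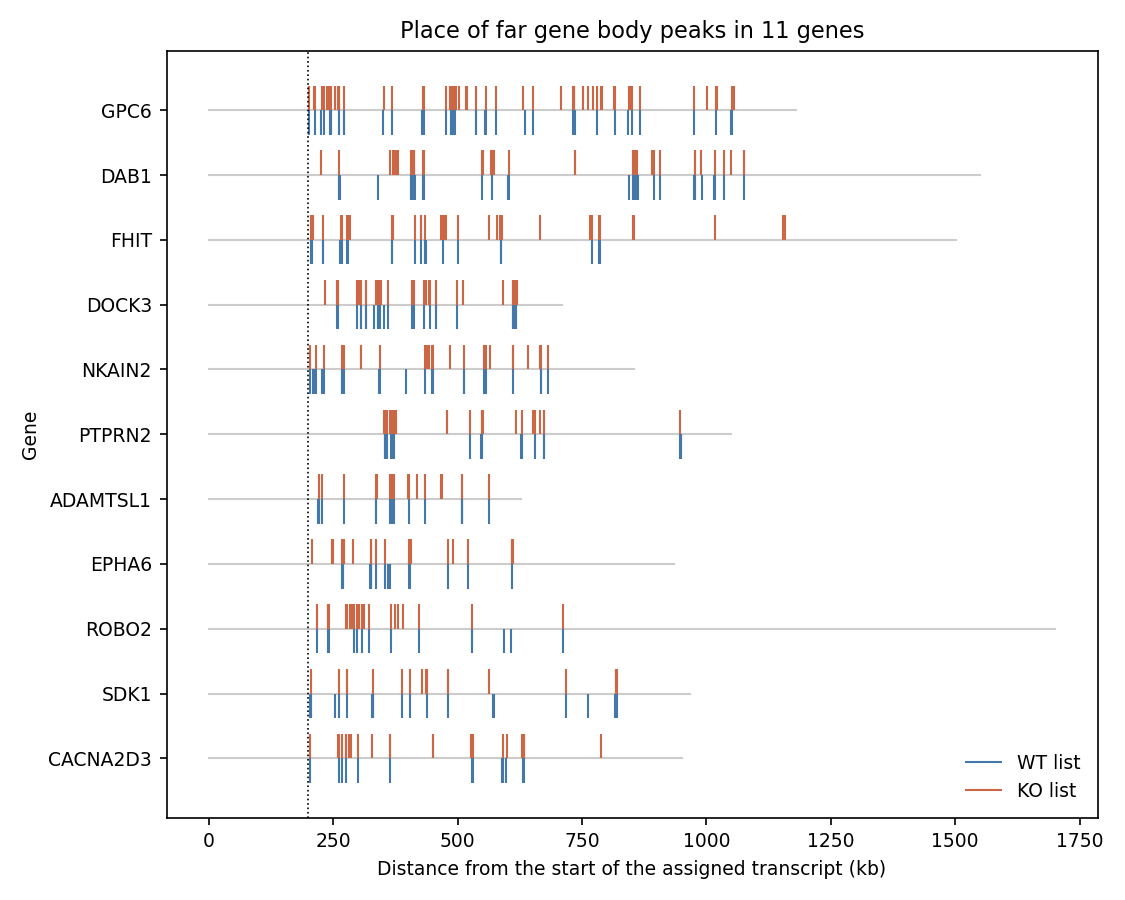
Far peaks of 11 of the 12 genes with the most of them (vertical axis) by distance from the start of the assigned transcript (kb, horizontal axis). KO peaks are ticks above and WT peaks ticks below the line, which is the longest assigned transcript, and the dotted line marks 200 kb. Most WT peaks of each gene overlap a KO peak, while many KO peaks have no WT partner. Those without a partner number 25 of 42 in FHIT and 14 of 25 in both ROBO2 and CACNA2D3, which are among the highest shares. They number 4 of 18 in SDK1 and 7 of 22 in ADAMTSL1. Over all KO peaks of chromosomes 1 to 22 the share without a partner is 50.3%. The ROBO2 ticks are distances from starts of transcripts of 606, 787 and 1701 kb, so neighbouring ticks there need not be neighbouring sites.

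Along the assigned transcript, far peaks lay toward the nearer side of the stretch open to them. This place depends on the transcript chosen. Of the peaks beyond 200 kb of RefSeq genes, 48.0% in WT and 45.6% in KO were assigned to a nearer start and are not far peaks. Counted whatever the annotation, WT peaks per Mb lay between 10.2 and 12.9 from 200 to 1300 kb. The median place was 66.0% (64.7 to 67.9) of the transcript length in WT and 65.7% (64.4 to 67.1) in KO, at median distances of 320 and 326 kb. Beyond 1 Mb there were 33 WT and 59 KO far peaks. The farthest was in LRP1B, a lipoprotein receptor gene, at 1728 kb in KO, and in WT in EYS, a photoreceptor protein gene, at 1589 kb. When the stretch from 200 kb to the transcript end was cut into 5 equal parts, the first held 24.0% of WT (21.8 to 26.4) and 25.3% of KO far peaks (23.4 to 27.3). The last held 12.98% (11.3 to 14.9) and 11.98% (10.6 to 13.5), so its intervals lie below those of the first in both lists. Within 20 kb of the transcript end were 7.31% of WT and 5.56% of KO far peaks. Among genes with 10 or more, the median place ran from 22.6% to 96.4%, so individual genes departed widely from this average.

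**Figure D3:**
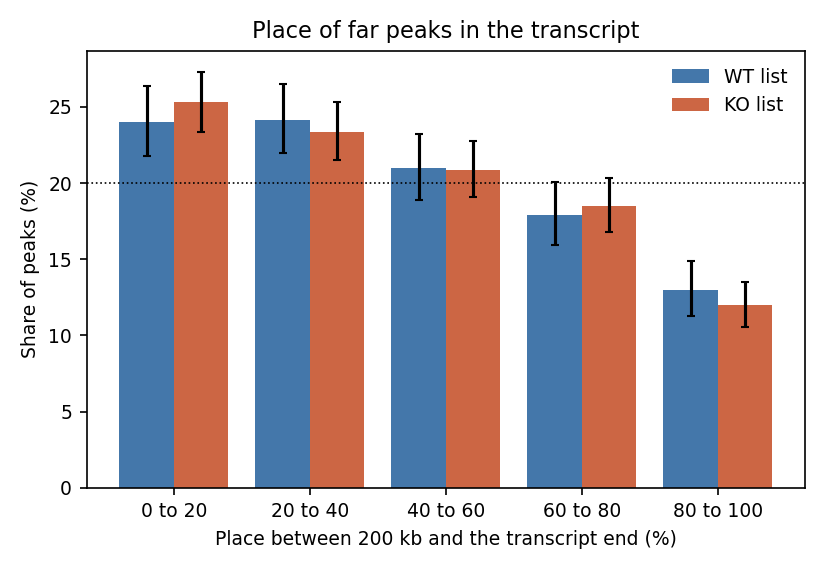
Share of far peaks (%, vertical axis) in 5 equal parts of the stretch between 200 kb and the end of the assigned transcript (horizontal axis), WT and KO bars with Wilson 95% intervals; the dotted line is 20%. The first part holds 24.0% in WT and 25.3% in KO and the last 12.98% and 11.98%.

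Peaks per unit of gene sequence were fewer far inside long genes than near their starts. For this count every peak, whatever its annotation, was placed on 1105 RefSeq protein-coding genes of 200 kb or more with a known strand. The 6 genes left out by the rule are not among them, and their 7.32 Mb held 49.8 WT and 82.3 KO peaks per Mb. Long genes with no strand in the reference, 67.4 Mb, held 13.6 and 17.2. Beyond 200 kb these genes held 11.6 WT peaks per Mb (11.1 to 11.997) and 15.0 in KO (14.5 to 15.5). Their first 200 kb held 16.1 (15.6 to 16.6) and 20.3 (19.7 to 20.9), and shorter protein-coding genes 13.5 and 18.0. Sequence outside protein-coding genes held 16.1 in WT and 24.5 in KO. The count was 18.3 WT peaks per Mb in the first 50 kb and 11.99 at 200 to 300 kb, and lay between 10.2 and 12.9 from there up to 1300 kb. The KO to WT ratio of these counts was between 1.23 and 1.37 in each bin up to 1300 kb, and 1.57 in the last, which holds 47 WT and 74 KO peaks. Of the peaks beyond 200 kb of RefSeq genes, 39.7% in WT and 41.6% in KO are far peaks by the rule. A further 48.0% and 45.6% were assigned to a transcript with a nearer start. GALNT13 had 12 WT and 15 KO peaks assigned to it and 0 far peaks, but how many of them lay beyond 200 kb of the RefSeq gene was not counted.

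**Figure D4:**
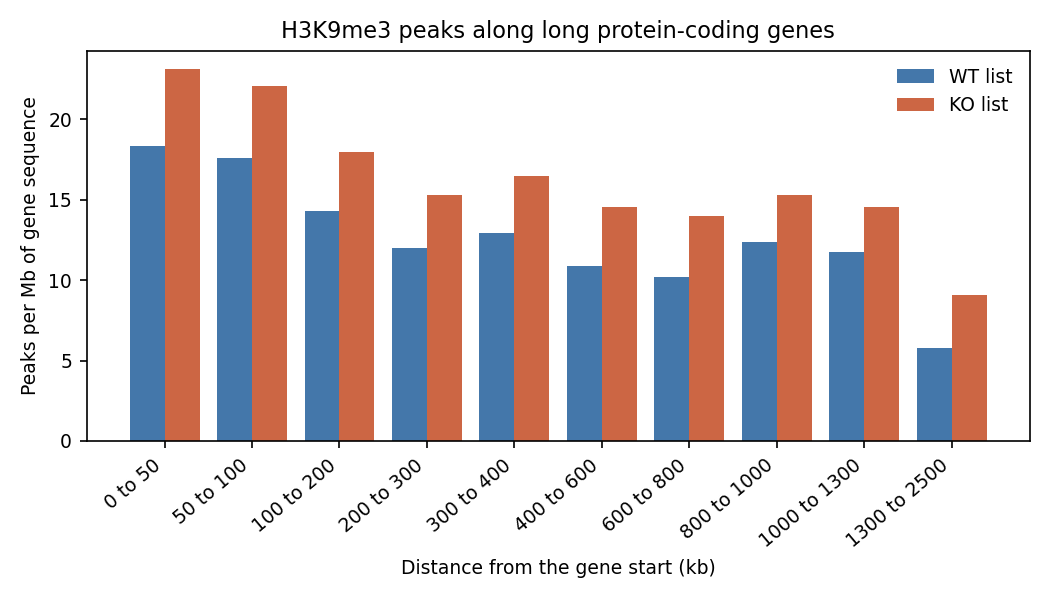
H3K9me3 peaks of any annotation per Mb of gene sequence (vertical axis) by distance from the start of 1105 long protein-coding genes (kb, horizontal axis), WT and KO bars side by side. WT bars are at 18.3 in the first 50 kb and at 11.99 at 200 to 300 kb, and the last bar rests on 47 WT and 74 KO peaks.

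The rule opens more sequence in a longer gene, so the share of genes with a far peak is given beside the number per Mb. Genes counted here are those of chromosomes 1 to 22 without the 6 left out by the rule. Of 601 RefSeq genes of 200 to 300 kb, 4.99% had one in WT and 5.49% in KO. Of 183 genes of 500 to 800 kb the shares were 43.7% and 51.9%, and of 34 genes of 1200 kb or more 70.6% (53.8 to 83.2) and 85.3% (69.9 to 93.6). Per Mb beyond 200 kb, far peaks numbered 2.37 in WT and 3.16 in KO for genes of 200 to 300 kb, 4.07 and 5.80 for 300 to 500 kb, and 4.51 and 5.78 for 500 to 800 kb. Genes of 800 to 1200 kb had 5.79 and 8.02 per Mb, and the longest class 4.61 and 7.09. Far peaks are set by the assigned transcript and this sequence by the RefSeq gene. Only 39.7% of WT and 41.6% of KO peaks beyond 200 kb of RefSeq genes are far peaks. Whether the assignment accounts for the differences between length classes was not tested. Of the 40 longest genes 35 had a far peak in either list. The 5 without were CSMD1, GALNT13, LINGO2, KCNIP4 and DCC, named after their values were seen. RBFOX1, the longest, had 1 WT and 4 KO far peaks, and the phosphatase gene PTPRD 0 and 2.

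Gene by gene, more bases in KO was the usual case, as it was for all genes. Of the 395 genes, 319 had more far-peak bases in KO, 80.8%, near the 79% over all 4842 protein-coding genes with a peak, and 76 had fewer, 19.2% beside 21%. A gain of 1.5 times or more was seen in 219 genes, 55.4% beside 52.1%, and a loss of that size in 39, 9.87% beside 9.38%. The median difference was 667 bases per gene, beside 584 over all protein-coding genes with a peak. The shares are thus close to the background. No background was made for genes with 5 or more peaks, so the next shares have no counterpart. Among the 190 genes with 5 or more far peaks, 103 had a gain of that size (54.2%) and 5 a loss (2.63%). Those 5 were NAALADL2, CDH18, AGBL1, FSTL4 and GNGT1, named after their values were seen.

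In the lists as deposited the largest gain in bases was in FHIT, from 15014 to 33882. There 4 of 27 WT and 25 of 42 KO far peaks had no partner, beside 18.4% of all WT and 50.3% of all KO peaks. CHODL, the gene of the membrane lectin chondrolectin, had 0 WT and 35 KO far peaks with 15543 bases, 32 of them within 100 kb (chr21:18139212-18238677), and a highest fold of 4.67. DOCK3 and GPC6 were also among the 5 largest gains, with 13659 and 13230 more bases in KO. With lists of equal length the differences were 14996 in CHODL, 12830 in FHIT, 8353 in DOCK3 and 3358 in GPC6, and ROBO1 with 9971 and NKAIN2 with 6455 then exceeded GPC6. At or above the median fold GPC6 had 5989 more bases in KO. In GPC6 the KO bases were 1.31 times the WT bases and in FHIT 2.26 times, so rank by bases and rank by ratio differ.

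The losses were smaller and rested on few peaks. NLGN1, a neuroligin of synapses, had 3 WT and 1 KO far peaks with 3398 and 644 bases. RSRC1, a splicing-related protein gene, had 3 and 0 with 1775 and 0 bases, and KIAA1217 had 2 in each list with 2432 and 802 bases. PLCH1, a phospholipase C, had 2 and 1, and the cadherin CDH18 6 and 3. Of the 39 genes with a loss of 1.5 times or more 14 lie on chromosomes 3 and 10, which hold 67 of the 395 genes. NLGN1, RSRC1 and PLCH1 lie on the long arm of chromosome 3.

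**Figure D5:**
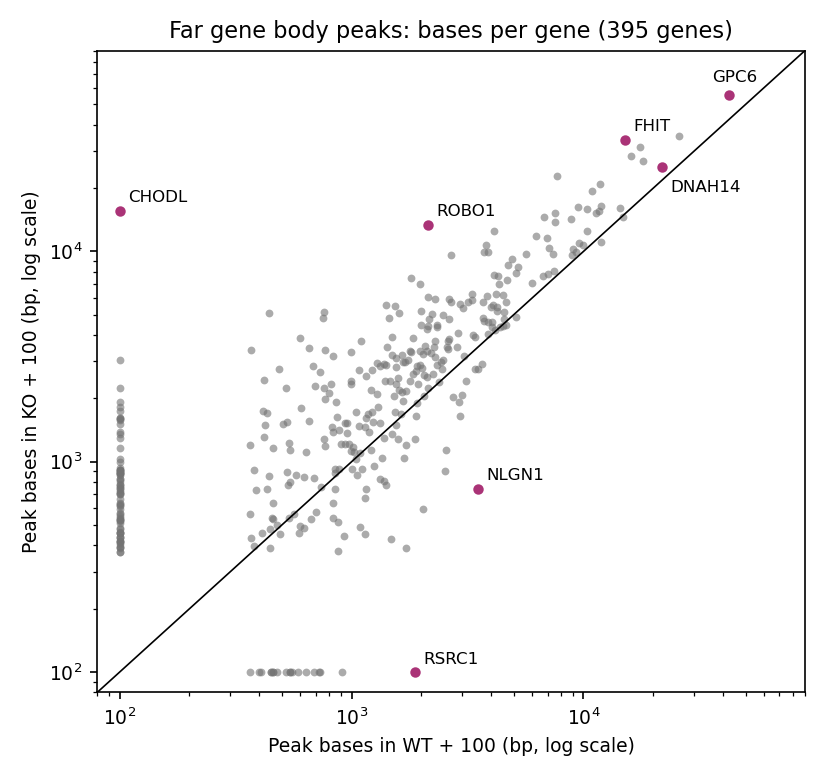
Far-peak bases per gene in WT (horizontal axis) and KO (vertical axis), both plus 100 bp on log scales, for 395 genes, with the line of equality and 7 genes named. Of the points, 319 lie above the line and 76 below it, and CHODL and RSRC1 stand at 0 bases in WT and in KO.

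Chromosome 3 held 219 WT and 326 KO far peaks, 16.3% and 17.4% of each list, while it held 6.495% of all KO peaks and 9.92% of long-gene sequence beyond 200 kb. Per Mb of that sequence it had 7.62 in WT and 11.3 in KO, and it was not the densest chromosome. Chromosome 13 had 10.1 and 12.8, chromosome 21 had 7.68 and 43.8, and chromosome 1 had 7.79 and 10.0. On chromosome 21 there were 10 WT and 57 KO far peaks, a ratio of 5.70 (2.95 to 11.0), beside 3.52 for all its peaks. Without CHODL chromosome 21 had 10 and 22, of which RUNX1, a transcription factor of blood formation, held 6 and 13. The authors' RUNX1 transcript is 1118 kb long and the RefSeq gene 261.5 kb, and 0 of these RUNX1 peaks lay inside the RefSeq gene. Chromosome 10 had 114 and 124, a ratio of 1.09 (0.844 to 1.40), beside 1.18 for all its peaks. Chromosome 19, with 5 long genes, had none.

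Gene groups were described by count only, and their members are unequal in length. Over the 1334 RefSeq protein-coding genes of 200 kb or more on chromosomes 1 to 22, without the 6 left out by the rule, 376 had a far peak (28.2%). Of these 302 had more and 74 fewer bases in KO, with a median difference of 650.5 bases. Large genes of common fragile sites had one in 19 of 23, with 125 WT and 203 KO far peaks. Of these 19 genes 18 had more bases in KO and 1, NAALADL2, fewer, with a median of 2132, and with lists of equal length 16 of 18 had more and CTNNA3 and NAALADL2 fewer. The long genes of this group have a median length of 1113 kb, against 319 kb for all long genes, and longer genes offer more sequence beyond 200 kb. FHIT led it, and CCSER1 had 12 and 17.

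Genes of axon guidance had a far peak in 12 of 22, with 45 WT and 80 KO peaks, 9 genes with more and 3 with fewer bases, and a median of 495. With lists of equal length 5 had more and 7 fewer, so the direction of this group depended on list length. ROBO1, the paralog of ROBO2, had 5 and 19 far peaks and 2027 and 13322 bases. Of the ion channel genes 13 of 32 had one, with 46 and 82 peaks, and each of the 13 had more KO bases, with a median of 420, while with lists of equal length 8 had more bases and KCNH5, KCNQ5 and RYR2 fewer. RYR2 had 11 and 16 and KCNH5 9 and 14. Genes of heparan sulphate and matrix proteins had one in 8 of 18, with 6 more and 2 fewer, and GPC6 held 43 of their 53 WT and 61 of their 81 KO peaks. LAMA2, a laminin chain, had 1 and 9, and HS6ST3, a heparan sulphate sulphotransferase, 6 and 5.

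Among genes of the synapse, 8 of 11 long synaptic organisers had a far peak, with 15 WT and 21 KO peaks, 5 with more and 3 with fewer bases, and a median of 304. The neurexin NRXN3 had 4 and 7, the latrophilin ADGRL2 1 and 5, and the teneurin TENM2 3 and 2. Glutamate receptor genes had one in 10 of 15, 8 with more and 2 with fewer, with GRID1 at 9 and 10 and GRIK4 at 2 and 2. Of the 4 long GABA-A receptor subunit genes 0 had a far peak. Scaffold and polarity genes had one in 9 of 19, each with more KO bases (7 of 9 with lists of equal length), and DAB1 held 36 of their 52 WT peaks. The active-zone protein gene ERC2 had 2 and 8, and MAGI3 4 and 5.

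Adhesion genes varied. Cadherins and unclustered protocadherins had a far peak in 6 of 12, 3 with more and 3 with fewer bases. PCDH15, a protocadherin of hair cells, had 8 WT and 18 KO far peaks, FAT3 5 and 7, and CDH12 6 and 5. Genes of IgLON and CADM proteins had one in 5 of 7, with 9 and 23 peaks, among them LSAMP with 5 and 11, OPCML with 0 and 6 and NEGR1 with 2 and 3. Contactins and their partners had one in 3 of 8, with CNTNAP5 at 2 and 6, CNTN3 at 1 and 3 and CNTN5 at 0 and 2. All 3 had more KO bases, CNTN3 only without the limits on fold or list length, and CNTNAP5 had 659 in WT and 5038 in KO.

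Genes of cyclic nucleotide enzymes had one in 5 of 12, with 26 and 28 peaks, of which PRKG1, the kinase activated by cyclic GMP, held 15 and 19, PDE10A 8 and 5 and ADCY8 2 and 2. Growth factor ligands and receptors had one in 6 of 13, with ERBB4 at 5 and 5, ALK at 1 and 3 and NTRK2 at 2 and 1. In a chosen list of RNA-binding protein genes 3 of the 11 long ones had one, with RBMS3 at 7 and 9, RBFOX1 at 1 and 4 and KHDRBS2 at 0 and 1. All 16 far peaks of RBMS3 lay outside its RefSeq gene. The 5 cyclic nucleotide, the 6 growth factor and the 3 RNA-binding genes with a far peak all had more KO bases. With lists of equal length PDE10A, GUCY1A2 and RBMS3 had fewer, and with the stricter fold limit PDE10A, RBMS3 and ERBB4. HLTF, at 56.5 kb, is too short to hold a far peak, and 0 peaks of any kind were assigned to it in either list.

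At the distance limit, in WT the nearest inside were 2 peaks of UPP2, at 200027 and 200888 bp with folds 4.48 and 4.87, and the nearest outside were in CDH13 at 199972 bp and PLCL1 at 199976 bp, with folds 4.48 and 4.40. In KO the nearest inside were in TRPM3 at 200223 bp and ATRNL1 at 200279 bp, with folds 3.05 and 4.75. The nearest outside were in PRKCE at 199939 bp and ROBO2 at 199983 bp, with folds 2.97 and 3.35.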

How the data were processed

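H3K9me3 was measured by ChIP-seq in 293T cells, with HISAT2 and hg38 named in the submitters' processing notes. The peak caller was not given in the sources used here, nor whether it used the input or how replicates were joined. The deposited lists give, per the file headers, a fold enrichment, read here as a ratio of signal over background, and a q-value per peak, both made by the authors, beside an assigned transcript and a distance. The distance is from the peak's midpoint to the transcript start, within 0.5 bp for every far peak that lies on its transcript. The planned edgeR test was not run, since it needs counts per library.

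Far peaks were selected, summed and overlapped (1 bp or more) in Python 3.11.15 with pandas 2.3.3, numpy 2.4.6 and SciPy 1.17.1. Intervals are Wilson, Newcombe or, for medians, order-statistic 95% intervals. They treat peaks as independent, although peaks of 1 gene and overlapping peaks of both lists share their source. The overlap code and intervals were tested on simulated data. Of the 395 genes, 392 matched RefSeq (99.2%), and 69 had far peaks on more than 1 transcript. Gene coordinates are those of the longest assigned transcript. Gene lengths, strands and promoter sequences come from RefSeq (GRCh38.p14), without strands on chromosome 8. Promoter windows of chromosome 8 were not searched for far peaks.

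Named genes are the 12 with most far peaks, the 6 with most bases per length, the 5 largest gains and losses, up to 3 per gene group and those of the 5 strongest peaks per list. Some genes that this rule or a ranking would name are not reported here. The far peaks, gene groups and alternatives were chosen with earlier results of these data known. Alternatives were other thresholds of fold, q-value and distance, lists of equal length, merged peaks, omitted chromosomes and other overlap rules.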

Additional observations from a re-analysis of the deposited data

Results flagged for a closer look

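Far gene body peaks also occurred in data outside the rule. On chromosome X the protein-coding genes had 79 WT and 61 KO peaks 200 kb or more from the transcript start, a ratio of 0.772 (0.554 to 1.08), with IL1RAPL2 at 26 and 17. Noncoding genes of chromosomes 1 to 22 had 447 WT and 632 KO such peaks, a ratio of 1.41 (1.25 to 1.60), with RNF219-AS1 at 22 and 24. The chromosome X peaks enter no comparison above, and the noncoding ones enter it only within the counts over all peaks, so both are given here by themselves. No control lists exist for either, and differences between genotypes were not tested.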

How the results depend on the processing

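No paired analysis was possible because each genotype has a single peak list with no value per replicate. For the same reason no replicate could be left out, and depth is unknown. Leaving out chromosome 13, 21, or 3 and 10, or GPC6 (an alternative added after seeing the data), kept the count ratio between 1.36 and 1.41 and the base ratio between 1.58 and 1.64. Without GPC6 the ratio of peaks with a fold of 6 or more was 3.36 (1.86 to 6.05). The cause of the following shifts was not tested, other than that stricter lists hold fewer peaks and a shorter distance admits more genes.

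With only peaks whose fold reached the median of the pooled lists (3.69), the count ratio was 1.12, the base ratio 1.41, and the shared shares 65.5% in WT and 54.4% in KO. With peaks at or below the median q-value, the ratios were 2.12 and 2.16, the KO shared share 37.2%, and far peaks were 9.32% of gene body peaks. With lists of equal length, the ratios were 1.05 and 1.30 and the shared shares 68.5% and 56.5%, and 250 of 381 genes had more KO bases, 65.6% beside 60.2% over all genes. At 100000 bp far peaks were 20.96% of gene body peaks, in 884 genes, at a median place of 61.6%, and at 400000 bp 3.44%, in 132 genes, at 70.0%. The main values were 9.92%, 395 genes and 65.9%. The share was 11.0% with the 6 genes put back, 10.9% with merged peaks and 8.69% without chromosomes 3 and 10, where the median place was 68.1%. Merging gave a KO shared share of 56.9%. A reciprocal overlap of 50% gave 42.5% and 30.4%, and a gap of up to 1000 bp 89.2% and 63.4%. RefSeq lengths put the median place at 55.1%.

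For some named genes the sign of the KO minus WT bases turned. Above the median fold it was -1547 in EPHA6, -450 in DNAH14, -902 in KCNH5, -858 in CNTN3, -1441 in FAT3, -691 in PDE10A, -999 in RBMS3 and -531 in ERBB4. With lists of equal length it was -383 in PTPRN2, -2628 in EPHA6, -656 in DNAH14, -252 in KCNH5, -55 in CNTN3, -1959 in FAT3, -120 in RYR2, -1541 in PDE10A and -1140 in RBMS3. At or below the median q-value it was -1033 in EPHA6 and 294 in HS6ST3. Genes lost by 1.5 times or more numbered 60, 80 and 24 in these 3 settings, beside 39.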

Other observations

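The 6 genes left out by the rule had 202 WT and 254 KO peaks 200 kb or more from the start, a ratio of 1.26 (1.05 to 1.51).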
